A study of Homo sapiens with 6 samples.

Results

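The genes described here are 50 of the mitotic spindle, spindle checkpoint and cytokinesis, many expressed most strongly shortly before and during division. They were chosen by name, with earlier results of these data known, so their counts describe these genes and are not independent evidence of a direction. Each of the 50 matched a single row among the 40295 gene identifiers of the table. HDQ-P1 is an established human carcinoma cell line, and Y-320 is a phenylpyrazoleanilide that the study examined as an enhancer of premature termination codon readthrough. RNA-seq libraries were made from HDQ-P1 cells after 48 h with Y-320 at 1 μM and from untreated HDQ-P1 cells, with 3 libraries in each group. Both groups were the same line grown in high-glucose DMEM with serum and an antibiotic-antimycotic, and no source used here says that solvent was added to the untreated cells. Nothing states that the replicates came from separate cultures, so the p-values given here measure the spread between these libraries, which may be technical.

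To divide, a cell activates CDK1 through its cyclin partners, builds a bipolar spindle with the help of Polo-like and Aurora kinases and motor proteins, and attaches chromosomes to it at kinetochores. The spindle checkpoint holds back the anaphase-promoting complex (APC/C), a ubiquitin ligase, until every chromosome is attached, after which chromosomes separate and the central spindle guides cytokinesis. Many of the genes are transcribed late in the cell cycle under a complex of MuvB proteins with MYBL2 (B-MYB) and FOXM1, and are held silent earlier by a related repressor complex. In growing cancer cells their RNA levels are widely used as a measure of proliferation.

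The deposited values are estimated counts per gene, and totals were 21045401 to 22740535 counts per library. They were scaled to a common total with TMM factors of 0.9918 to 1.006 and are given as normalized CPM, so that a change is relative to the bulk of all genes. Groups were compared with edgeR's quasi-likelihood model, p-values were adjusted by the Benjamini-Hochberg method over all 16580 genes that passed a filter on low counts, and a gene was called higher or lower at an adjusted p under 0.05. All 50 genes passed the filter. Differences between libraries, as chi-square per degree of freedom, were 2.0 to 2.96 within groups and 40.1 to 42.3 between them. The level that 3 counts represent was 0.131 to 0.144 CPM. Epithelial markers were expressed, as fits a carcinoma line, with CDH1 at 325 CPM and EPCAM at 304 CPM on average in untreated cells, and the summed level of 8 epithelial markers was 11307 to 11829 CPM in untreated cells and 6902 to 6974 CPM with Y-320, with 7 markers lower and 1 (EPCAM) higher. The summed level of 7 fibroblast markers was 250.2 to 286.4 CPM in untreated cells and 127.4 to 147.7 CPM with Y-320, with 4 lower. Sums of immune markers were 1.314 to 2.129 and 1.968 to 2.121 CPM, with none of the 2 that passed the filter past the threshold, and sums of 3 endothelial markers were 17.53 to 18.89 and 13.76 to 17.95 CPM, with 1 higher and 1 lower. The part of these markers in the results was not tested.

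Most of the mitotic genes were modestly lower with Y-320. Of the 50, 33 were lower, 3 were higher and 14 did not pass the threshold. The lower genes were 66.0% of the members, against 25.4% of all genes tested, and the higher genes were 6.0%, against 26.2% of all genes tested. The median log2 fold change of the members was -0.16, with a range of -0.70 to 0.20, beside a median of 0.00 over all genes. The sign was negative for 43 of the 50. In 34 members the 3 treated libraries lay below the 3 untreated ones, as they did in 29.4% of all genes, and in 4 members the treated libraries lay above, as they did in 29.8% of all genes. A drop of at least 0.5 log2 units, found in 7.28% of all genes, occurred in 3 members, SPC25, KIF20A and CCNB1. The members are well expressed, and 49 of them, with all 33 lower and all 3 higher genes, had a mean of at least 10 CPM. At that level 30.9% of genes were lower, and the median of all genes was again 0.00. In bulk RNA, fewer cells in or near division and less of these RNAs per dividing cell cannot be told apart.

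**Figure D1:**
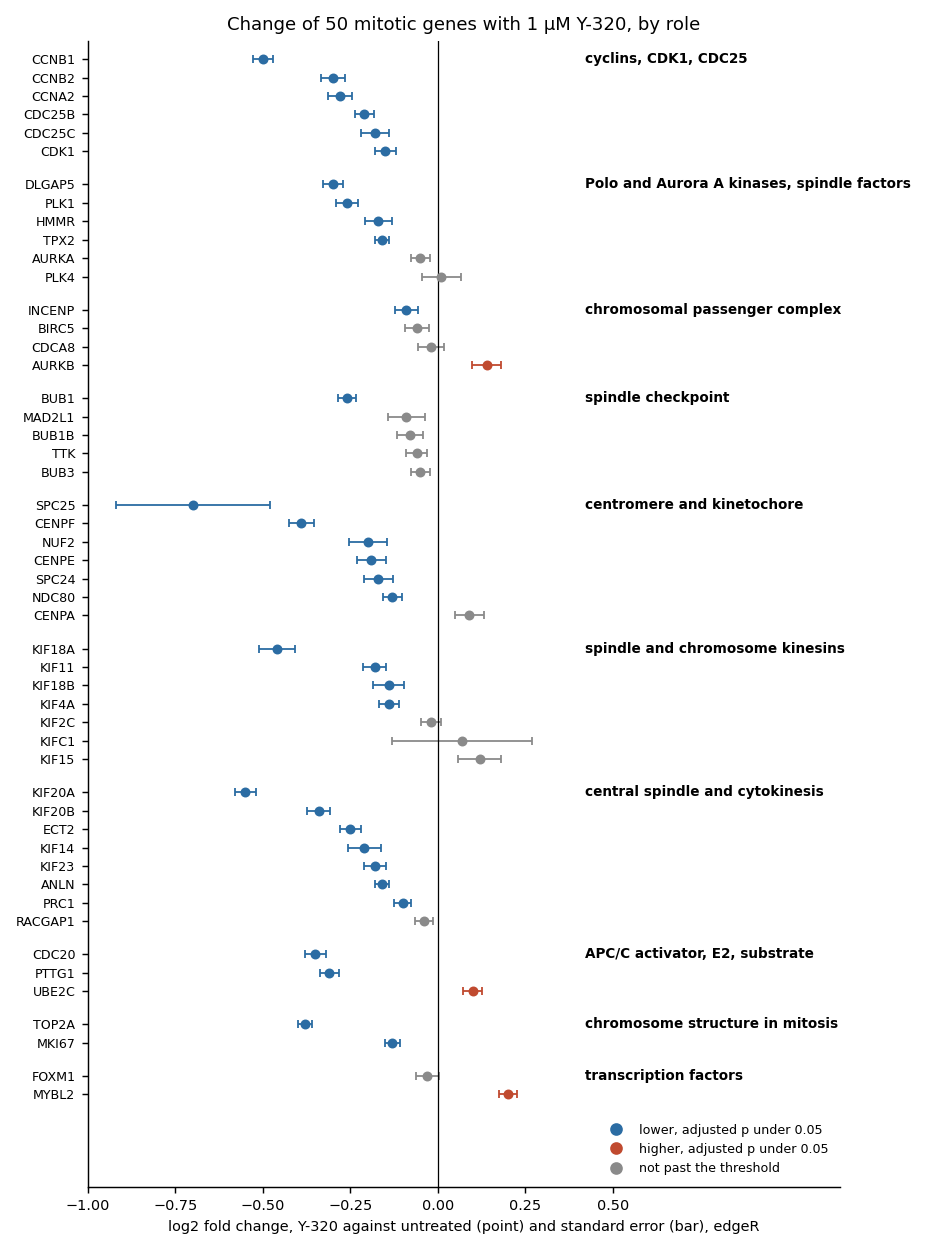
Log2 fold change of each of the 50 genes, Y-320 against untreated (horizontal axis), with its standard error from edgeR (bar), grouped by role. All 6 cyclin, CDK1 and CDC25 genes lie left of 0, checkpoint genes lie near 0 apart from BUB1 at -0.26, and the higher genes are AURKB, UBE2C and MYBL2.

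Added together, the 50 genes took 8073, 8002 and 7901 CPM in untreated replicates 1, 2 and 3 and 6991, 7043 and 7029 CPM in Y-320 replicates 1, 2 and 3. The groups did not overlap. The mean was 7992 ± 86.3 CPM in untreated cells and 7021 ± 26.8 CPM with Y-320 (SD, n = 3), a change of -12.2%. DNA replication genes, which are active in S phase, summed to 3575, 3539 and 3474 CPM in untreated cells and 3666, 3564 and 3551 CPM with Y-320, a change of 1.82% with overlapping groups.

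Promoters were examined because the genes are known to share control elements. RefSeq promoters on GRCh38.p14, covering 250 bases before to 50 bases after the gene start, were matched for 42 of the 50 genes. Those of TPX2, which was lower, and of AURKA, BIRC5, BUB3, TTK, RACGAP1, UBE2C and FOXM1, which were not, were missing. The cell cycle genes homology region (CHR), searched as TTTGAA or TTCGAA on both strands, is the element that MuvB complexes bind. It was present in 31 of the 42 promoters (73.8%), against 16.4% of all 35116 promoters of this length. Within 50 bases either side of the start it was present in 27 (64.3%), against 5.01% of all promoters. The CCAAT box, searched as CCAAT on both strands and bound by NF-Y, was present in 31 (73.8%), against 34.6%. E2F motifs, searched as TTTGGCGC, TTTCGCGC, TTTCCCGC and TTTGCCGC on both strands, were present in 3 (7.14%), against 3.31%. None of these letter strings contains another.

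The promoters of SPC25, KIF18A, CENPF and TOP2A are shown as those of the lower genes with the largest drops that hold a CHR, and that of PLK4 as a gene with a CHR whose level hardly moved. They are written 5′ to 3′ on the gene's strand, and capitals mark CHR, CCAAT and E2F letters. The start is base 251 of each sequence, counted as position 1, and the base before it as -1. The SPC25 promoter lies at chr2:168890381-168890680 (minus strand), KIF18A at chr11:28108107-28108406 (minus), CENPF at chr1:214602945-214603244 (plus), TOP2A at chr17:40417847-40418146 (minus) and PLK4 at chr4:127880643-127880942 (plus). The RefSeq start of SPC25 lies inside its GENCODE span, which reaches base 168913371 on that strand.
SPC25: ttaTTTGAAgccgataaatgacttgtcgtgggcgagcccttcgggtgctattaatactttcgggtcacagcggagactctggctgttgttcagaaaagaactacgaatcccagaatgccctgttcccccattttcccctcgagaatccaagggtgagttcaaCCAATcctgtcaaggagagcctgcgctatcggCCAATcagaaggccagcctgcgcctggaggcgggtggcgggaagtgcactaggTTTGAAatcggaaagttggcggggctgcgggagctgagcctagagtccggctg
KIF18A: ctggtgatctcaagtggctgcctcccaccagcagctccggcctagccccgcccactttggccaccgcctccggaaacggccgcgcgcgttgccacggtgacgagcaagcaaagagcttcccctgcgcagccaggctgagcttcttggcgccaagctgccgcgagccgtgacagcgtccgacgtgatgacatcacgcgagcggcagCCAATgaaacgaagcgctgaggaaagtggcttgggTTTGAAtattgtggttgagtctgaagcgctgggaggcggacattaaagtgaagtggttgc
CENPF: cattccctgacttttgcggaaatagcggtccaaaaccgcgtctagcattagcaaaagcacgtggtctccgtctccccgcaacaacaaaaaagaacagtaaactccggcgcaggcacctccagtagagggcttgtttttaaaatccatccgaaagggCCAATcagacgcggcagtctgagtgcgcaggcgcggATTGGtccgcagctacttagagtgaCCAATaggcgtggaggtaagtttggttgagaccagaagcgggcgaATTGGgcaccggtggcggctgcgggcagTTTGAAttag
TOP2A: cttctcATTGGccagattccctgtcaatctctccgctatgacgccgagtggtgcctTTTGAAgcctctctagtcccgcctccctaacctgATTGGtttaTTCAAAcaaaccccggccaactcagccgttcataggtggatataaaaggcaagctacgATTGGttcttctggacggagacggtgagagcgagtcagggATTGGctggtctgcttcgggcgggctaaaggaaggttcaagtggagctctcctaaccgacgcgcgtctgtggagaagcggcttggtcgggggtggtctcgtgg
PLK4: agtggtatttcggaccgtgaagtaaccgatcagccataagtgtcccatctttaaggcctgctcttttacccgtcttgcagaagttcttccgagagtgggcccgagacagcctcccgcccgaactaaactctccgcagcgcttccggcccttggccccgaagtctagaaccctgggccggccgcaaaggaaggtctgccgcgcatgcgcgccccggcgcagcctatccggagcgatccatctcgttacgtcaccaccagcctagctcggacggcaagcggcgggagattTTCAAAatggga

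The CHR nearest the start begins at position -3 in SPC25, -10 in KIF18A, 41 in CENPF, -151 in TOP2A and 39 in PLK4. SPC25, KIF18A, CENPF and TOP2A also hold CCAAT letters, and the PLK4 promoter holds none. Among the 42 matched promoters, the presence of CHR letters did not separate the genes that were lower from the others. A CHR with other letters, or outside the sequence searched, would be counted as absent. Most unmatched promoters belonged to genes not called lower, so the shares of the others are incomplete. A CHR was found in 24 of 32 promoters of lower genes (75.0%) and in 7 of 10 promoters of the other members (70.0%). The median log2 fold change was -0.17 for the 31 members with CHR letters and -0.19 for the 11 without these letters. CCAAT letters were in 26 of 32 promoters of lower genes (81.2%) and 5 of 10 others (50%), against 34.6% of all. From 100 bases before to 50 after the start, these were 25 of 32 (78.1%) and 2 of 10 (20%), against 21.3% of all. CCNB1 and KIF20A, with log2 fold changes of -0.50 and -0.55, have CCAAT but no CHR letters in this window, and MYBL2, which was higher, has neither.

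**Figure D2:**
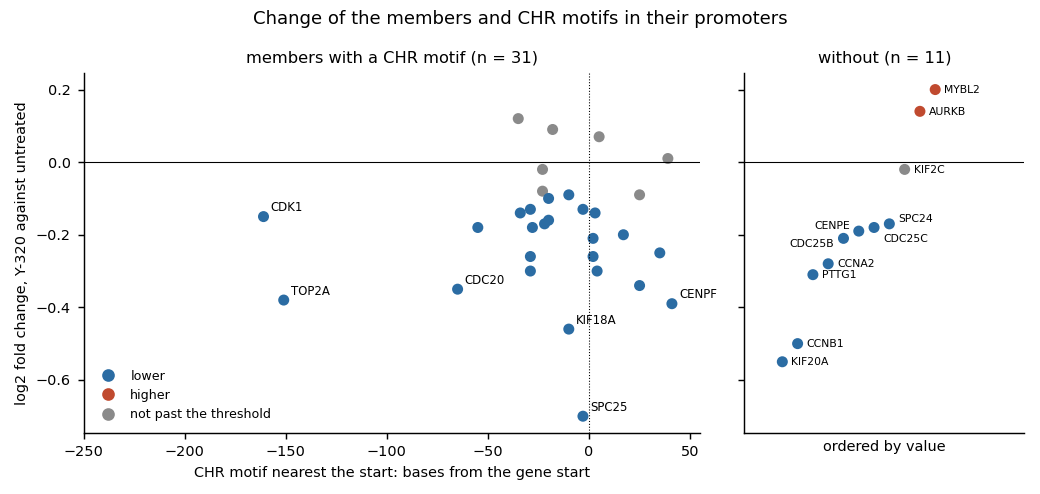
Log2 fold change (vertical axis) of the 42 members with a promoter sequence. The left panel (n = 31) gives the position of the CHR nearest the gene start in bases. The right panel (n = 11) holds members without CHR letters in this sequence, ordered by value. Most CHR motifs cluster around the start, and members with and without one span similar ranges, with medians of -0.17 and -0.19.

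All 6 genes of the cyclin, CDK1 and CDC25 group were lower, with a median log2 fold change of -0.25, and in each of them the treated libraries lay below the untreated ones. CCNB1 (ENSG00000134057, chr5:69167135-69178245), which encodes cyclin B1, the main mitotic partner of CDK1, had 267, 264 and 253 CPM in untreated replicates 1, 2 and 3 and 186, 182 and 186 CPM with Y-320. The groups were far apart relative to their spread, with 262 ± 7.51 against 185 ± 2.34 CPM (SD, n = 3). The log2 fold change was -0.50 (SE 0.028, edgeR adjusted p = 1.88e-07). CDK1 (ENSG00000170312), the kinase itself, had 108, 105 and 105 CPM untreated and 92.7, 97.4 and 97.1 CPM with Y-320. Its drop was smaller, with a log2 fold change of -0.15 (SE 0.031, edgeR adjusted p = 0.00233). The other cyclins lay between them, CCNB2 at -0.30 and CCNA2, which serves both S phase and mitosis, at -0.28. The CDC25 phosphatases, which remove inhibitory phosphates from CDK1, were lower by similar amounts, CDC25B at -0.21 and CDC25C at -0.18.

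Among the Polo-like and Aurora A kinases and the spindle factors that work with them, 4 of 6 were lower and none was higher, with a median of -0.16. In this and the other roles and lists with 0 higher genes, the count was also 0 at an unadjusted p under 0.05 in edgeR and with DESeq2 and limma-voom. DLGAP5 (ENSG00000126787), a microtubule-stabilizing protein of kinetochore fibres, had 135, 135 and 131 CPM in untreated cells and 107, 110.4 and 108 CPM with Y-320. This was the largest drop of the group, with a log2 fold change of -0.30 (SE 0.028, edgeR adjusted p = 7.60e-06). PLK1 (ENSG00000166851), the Polo-like kinase that drives centrosome maturation and mitotic progression, had 148, 153 and 149 CPM untreated and 129, 121 and 124 CPM with Y-320. Its groups were likewise separate, and its log2 fold change was -0.26 (SE 0.031, edgeR adjusted p = 4.18e-05). TPX2, which activates Aurora A on spindle microtubules, changed by -0.16, and HMMR, another spindle protein, by -0.17. AURKA, the Aurora A kinase, did not pass the threshold at -0.05 (edgeR adjusted p = 0.205), although its 3 treated libraries lay below the untreated ones, and it passed with upper-quartile scaling at -0.07 (edgeR adjusted p = 0.0458). PLK4, the kinase that starts centriole duplication, gave 0.01 (edgeR adjusted p = 0.888), with overlapping groups.

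The chromosomal passenger complex, which corrects faulty attachments and later works at the midzone, moved little and in both directions. Its kinase AURKB (ENSG00000178999) had 32.1, 31.9 and 31.1 CPM untreated and 35.2, 35.8 and 33.7 CPM with Y-320. The treated libraries lay above the untreated ones, and the log2 fold change was 0.14 (SE 0.041, edgeR adjusted p = 0.0159). That call was lost without untreated replicate 3 (edgeR adjusted p = 0.0607), without Y-320 replicate 2 (edgeR adjusted p = 0.0609) and with DESeq2 (adjusted p = 0.0644). The scaffold INCENP was lower by a small margin at -0.09 (edgeR adjusted p = 0.0362), and lost its call in 5 of 6 leave-one-out fits, all but that without untreated replicate 3, with values of -0.11 to -0.07 over the 6. It was also lost with no filter (edgeR adjusted p = 0.0549) and with library size scaling (edgeR adjusted p = 0.0648). The remaining subunits BIRC5 (survivin) and CDCA8 (borealin) did not pass the threshold, at -0.06 and -0.02.

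Of the 5 spindle checkpoint genes, only BUB1 passed the threshold, and the group median was -0.08. BUB1 (ENSG00000169679, chr2:110637528-110678063), a kinase that recruits other checkpoint proteins to kinetochores, had 131, 130.1 and 131 CPM in untreated cells and 110.2, 109 and 108 CPM with Y-320. These tightly grouped values gave a log2 fold change of -0.26 (SE 0.025, edgeR adjusted p = 1.10e-05). The others were BUB1B (BUBR1) at -0.08, MAD2L1 (MAD2), which inhibits CDC20, at -0.09, the kinase TTK (MPS1) at -0.06 and BUB3 at -0.05, with edgeR adjusted p of 0.0825, 0.165, 0.130 and 0.158. In TTK and BUB3 the treated libraries lay below the untreated ones, and in BUB1B and MAD2L1 the groups overlapped. Upper-quartile scaling, which moved the median of all genes to -0.03, brought BUB1B, BUB3 and TTK past the threshold, with edgeR adjusted p of 0.0261, 0.0345 and 0.0315, and leaving out Y-320 replicate 1 did so for BUB1B (edgeR adjusted p = 0.0246).

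Centromere and kinetochore genes were lower in 6 of 7 cases, with a median of -0.19. CENPF (ENSG00000117724, chr1:214603185-214664574), a large protein of the outer kinetochore, had 283, 267 and 277 CPM untreated and 201, 211 and 219 CPM with Y-320. The groups did not overlap, and the log2 fold change was -0.39 (SE 0.035, edgeR adjusted p = 7.26e-06). SPC25 (ENSG00000152253, chr2:168834132-168913371), a subunit of the NDC80 complex that grips microtubules, had only 11.0, 16.1 and 17.1 CPM untreated and 6.96, 12.5 and 7.67 CPM with Y-320. Its log2 fold change of -0.70 was the most negative of the 50 (SE 0.22, edgeR adjusted p = 0.0193), but its replicates scattered widely and the groups overlapped. The value ran from -1.01 without Y-320 replicate 2 to -0.54 without Y-320 replicate 1. The call was lost in the latter fit (edgeR adjusted p = 0.0693), without untreated replicate 2 or 3 or Y-320 replicate 3 (edgeR adjusted p of 0.0670, 0.0789 and 0.0696), and with DESeq2 (adjusted p = 0.0730).

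The other 3 subunits of the NDC80 complex fell less, NUF2 at -0.20, SPC24 at -0.17 and NDC80 itself at -0.13. CENPE, the kinetochore motor that brings chromosomes to the metaphase plate, changed by -0.19. CENPA (ENSG00000115163), the histone H3 variant that marks centromeres, had 47.8, 44.9 and 48.6 CPM untreated and 48.5, 51.0 and 51.2 CPM with Y-320. The groups overlapped, and the log2 fold change of 0.09 did not pass the threshold (SE 0.042, edgeR adjusted p = 0.0927).

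Of the 7 kinesin motors of the spindle and chromosomes, 4 were lower and none was higher, with a median of -0.14. KIF18A (ENSG00000121621, chr11:28020619-28108156), which damps chromosome movements at metaphase, had 39, 44.5 and 40.4 CPM untreated and 29.6, 30.4 and 29.7 CPM with Y-320. The treated values were close together and well below the untreated ones, with a log2 fold change of -0.46 (SE 0.052, edgeR adjusted p = 3.42e-05). Its relative KIF18B changed by -0.14 (edgeR adjusted p = 0.0246) with overlapping groups, and was no longer called without untreated replicate 1 or 3 or Y-320 replicate 1 or 2, with values of -0.17 to -0.11 over all 6 such fits. KIF11 (Eg5), which pushes spindle poles apart, changed by -0.18, and the chromokinesin KIF4A by -0.14. KIF15 (ENSG00000163808), which can act beside KIF11, had 14.8, 15.5 and 15.4 CPM untreated and 15.8, 17.6 and 16.2 CPM with Y-320. The treated libraries lay above the untreated ones, but the log2 fold change of 0.12 did not pass the threshold (SE 0.062, edgeR adjusted p = 0.143). The microtubule depolymerase KIF2C gave -0.02, and KIFC1, at 1.92 to 2.93 CPM over the 6 libraries, gave 0.07 with an SE of 0.20.

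Genes of the central spindle and cytokinesis were lower in 7 of 8 cases, with a median of -0.19. KIF20A (ENSG00000112984, chr5:138178719-138187723), a kinesin that carries passenger proteins to the midzone, had 209, 219 and 212 CPM untreated and 143, 149.7 and 145 CPM with Y-320. The groups stood clearly apart, at 213 ± 5.15 and 146 ± 3.40 CPM (SD, n = 3). The log2 fold change of -0.55 had the smallest adjusted p of the 50 (SE 0.029, edgeR adjusted p = 1.34e-07). KIF20B followed at -0.34, then ECT2, the exchange factor that activates RhoA for furrowing, at -0.25 and KIF14 at -0.21. The centralspindlin motor KIF23 changed by -0.18, while its partner RACGAP1 did not pass the threshold at -0.04. The furrow scaffold ANLN changed by -0.16 and the microtubule bundler PRC1 by -0.10. The PRC1 value is uncertain, since 60.1% of its 31-base words also occur in an overlapping gene model, ENSG00000284946, whose own log2 fold change was -0.53.

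The regulators of anaphase onset moved in opposite directions. CDC20 (ENSG00000117399, chr1:43358981-43363203), the activator of the APC/C and the target of the checkpoint, had 152, 156 and 146 CPM untreated and 121, 117 and 118 CPM with Y-320. It was lower in 3 of 3 libraries, with a log2 fold change of -0.35 (SE 0.031, edgeR adjusted p = 6.29e-06). UBE2C (ENSG00000175063), the ubiquitin-conjugating enzyme that works with the APC/C, had 122, 122 and 118 CPM untreated and 129.8, 129.8 and 128 CPM with Y-320. It was higher in 3 of 3 libraries by a small amount, with a log2 fold change of 0.10 (SE 0.027, edgeR adjusted p = 0.00822). PTTG1 (securin), the substrate whose destruction frees separase, changed by -0.31.

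The proliferation markers TOP2A and MKI67 were both lower, by different amounts. TOP2A (ENSG00000131747, chr17:40388525-40417896), topoisomerase II alpha, which untangles sister chromatids, had 646, 637 and 632 CPM untreated and 485, 494 and 492 CPM with Y-320. With little spread in either group, the log2 fold change was -0.38 (SE 0.021, edgeR adjusted p = 1.68e-07). MKI67 (ENSG00000148773), which encodes the Ki-67 coat protein of mitotic chromosomes, had 656, 656 and 665 CPM untreated and 593, 607 and 608 CPM with Y-320. The groups were apart, with a log2 fold change of -0.13 (SE 0.021, edgeR adjusted p = 4.04e-04).

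The transcription factors of these genes were not among the lower ones. FOXM1 (ENSG00000111206) had 214, 220.1 and 217 CPM untreated and 223, 210.3 and 205 CPM with Y-320. The groups overlapped, and the log2 fold change was -0.03 (SE 0.033, edgeR adjusted p = 0.540). MYBL2 (ENSG00000101057, chr20:43667019-43716495) had 173, 178 and 169.9 CPM untreated and 199, 199.9 and 199 CPM with Y-320. It had the largest rise of the 50, higher in 3 of 3 libraries, with a log2 fold change of 0.20 (SE 0.026, edgeR adjusted p = 1.06e-04).

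**Figure D3:**
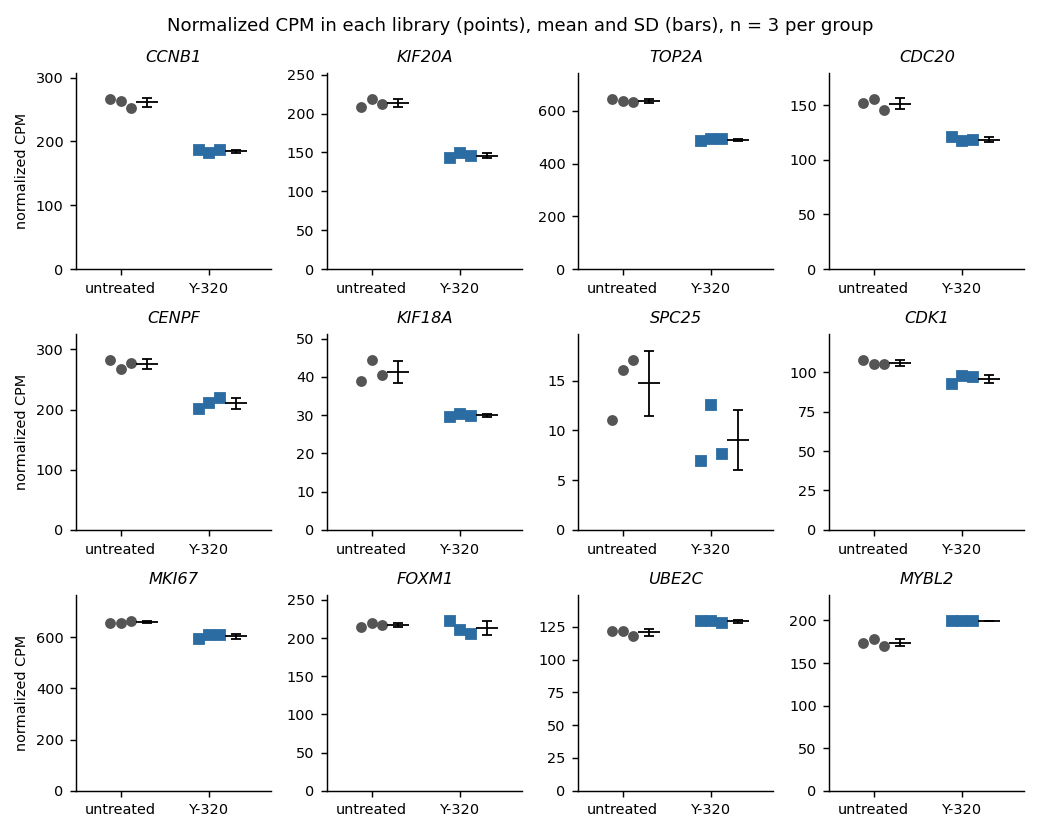
Normalized CPM of 12 genes in each library (circles, untreated; squares, Y-320; axes from 0) with the mean and SD beside each group (n = 3). CCNB1, KIF20A and TOP2A fall from means of 262, 213 and 638 to 185, 146 and 490.3 CPM, SPC25 and FOXM1 overlap between groups, and UBE2C and MYBL2 rise.

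Some partners and paralogs differed in their change. Log2 ratios within each library are given for 7 pairs picked because their values differed, so the separation of the groups follows from the choice and carries no test. Other related genes changed alike, such as CDC25B at -0.21 and CDC25C at -0.18, or CCNB2 at -0.30 and CCNA2 at -0.28. The ratio of CCNB1 to its partner CDK1 was 1.31, 1.34 and 1.26 in untreated cells and 1.00, 0.90 and 0.94 with Y-320, a difference of -0.35. The ratio of CCNB1 to CCNB2 differed by -0.21, that of KIF20A to KIF20B by -0.21 and that of KIF18A to KIF18B by -0.33. The ratio of CDC20 to UBE2C was 0.32, 0.36 and 0.31 in untreated cells and -0.11, -0.15 and -0.12 with Y-320, a difference of -0.45. AURKB rose relative to AURKA by 0.18, and MYBL2 relative to FOXM1 by 0.23.

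Levels of the genes spanned a wide range, and the size of the change did not follow it closely. Per kb of annotated exon, TPX2 had the highest level in untreated cells, at 169 CPM per kb, followed by CCNB1 at 108, ANLN at 103 and TOP2A at 100.1. The lowest were PLK4 at 4.57, KIF15 at 2.89 and KIFC1 at 0.769 CPM per kb. Across the 50 genes, which share libraries and are not independent replicates, Pearson's r between log2 level and log2 fold change was -0.18 and Spearman's rho was -0.12, as a description. KIF15 and KIFC1 each have 1 other row with identical values in all 6 libraries, so their reads may have been divided and their levels are uncertain. Shares of 31-base words found in another gene were 27.7% for KIF4A (with KIF4B) and 20.6% for CDC20 (with CDC20P1), whose partners KIF4B and CDC20P1 had log2 fold changes of -0.45 and -0.41 and did not pass the threshold (edgeR adjusted p of 0.414 and 0.0959). Shares of 13.4% to 17.4% were found for KIFC1, SPC24, SPC25, PLK1, AURKA and FOXM1, and the others besides PRC1 were under 10%.

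Counts in 7 further lists, of other mitotic genes and of transcription regulators, were closer to those of all genes. These lists hold 154 genes, 21 of them MuvB, E2F, pocket protein or NF-Y genes. Of the 154, 48 were lower (31.2%), 38 were higher (24.7%) and 68 did not pass the threshold, with a median of -0.02. Spindle and centrosome genes outside the 50 had 13 lower and 5 higher of 30, with a median of -0.07, among them ASPM at -0.39 and CKAP2 at -0.38, which organize spindle poles and microtubules, against the augmin subunits HAUS7 at 0.47 and HAUS8 at 0.21. HAUS8 was lost with DESeq2, with upper-quartile scaling and in 5 of 6 leave-one-out fits, all but that without untreated replicate 3. Other cytokinesis genes had 6 lower and none higher of 16, including the non-muscle myosins MYH10 at -0.40 and MYH9 at -0.31.

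Other kinetochore and centromere genes had 9 higher and 6 lower of 34, with a median of 0.05, and the strongest were DSN1 at 0.48, SKA1 at 0.44, SKA2 at -0.38 and NSL1 at -0.37. SKA1 has a second row with identical values, which makes its level uncertain. APC/C subunits and regulators had 6 higher and 5 lower of 18, with CDC26 at 0.38, ANAPC13 at 0.23, ANAPC4 at -0.23 and ANAPC7 at -0.21. ANAPC4 lost its call without untreated replicate 1 or 2 or Y-320 replicate 1 or 3, and was at -0.15 without untreated replicate 2. Cohesin and condensin genes had 9 lower and 5 higher of 21 and held the widest changes, CDCA5 (sororin), which protects cohesion, at 0.80 (94.2 to 164 CPM), the acetyltransferase ESCO1 at 0.50, the cohesin regulator PDS5B at -0.64 and the condensin subunit NCAPD2 at -0.52.

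Other kinases of mitotic entry and their regulators had 6 higher and 4 lower of 14, with a median of 0.06. The 2 highest were HASPIN, a histone H3 kinase, at 0.40 and PKMYT1 (Myt1), an inhibitory kinase of CDK1, at 0.38, and the 2 lowest were CDKN3 at -0.29 and NEK2 at -0.28. MuvB, E2F, pocket protein and NF-Y genes had 7 higher and 5 lower of 21, with the MuvB subunit LIN37 at 0.64 and E2F7 at 0.25 against TFDP2 at -0.50 and RBBP4 at -0.30. DNA replication genes had 13 higher (33.3%) and 10 lower (25.6%) of 39, with a median of 0.01. Among these the licensing factor CDT1 was at 0.66, CLSPN at 0.43, CDC7 at -0.40 and MCM6 at -0.38.

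**Figure D4:**
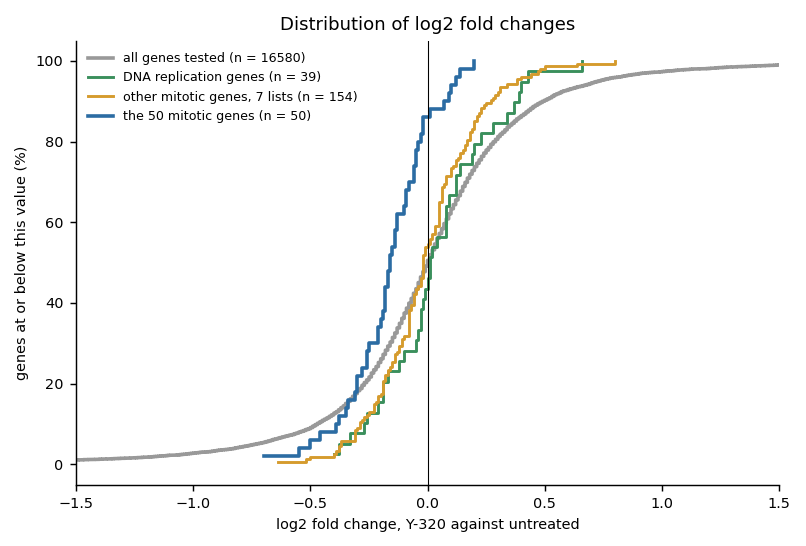
Cumulative share of genes (vertical axis, percent) at or below each log2 fold change (horizontal axis). Curves show the 50 members, 154 genes of 7 further lists (labelled other mitotic genes), 39 DNA replication genes and all 16580 genes tested. The curve of the members lies to the left around its median of -0.16, while the other curves cross near 0, with medians of -0.02, 0.01 and 0.00.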

How the data were processed

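Per the labels and the methods of the study, the authors extracted total RNA (RNeasy), prepared libraries on an Illumina NeoPrep system and sequenced them on a NextSeq 500. The authors deposited estimated counts per gene, made with kallisto 0.46.1 (submitters' processing notes) on hg38 transcripts from Ensembl, without normalization. The Ensembl release is not given in the sources used here. Of these values, 40.1% were not whole within 0.001, because kallisto divides reads between transcripts, so that near-identical genes can exchange reads. All depth statements cover counting error only.

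Counts were rounded and tested with edgeR 4.0.16 in R 4.3.3 (filterByExpr with a minimum of 10 counts and 15 in total, TMM, quasi-likelihood test, Benjamini-Hochberg adjustment, threshold 0.05) with all 6 libraries and no block. Symbols matched 35390 of 40295 identifiers. Gene coordinates and exon lengths came from GENCODE 44 on hg38, and promoters came from RefSeq on GRCh38.p14. Words of 31 bases were counted over annotated transcripts. Tables and plots used Python 3.11.15, numpy 2.4.6, pandas 2.3.3 and matplotlib 3.10.9.

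The 50 members, their 10 roles, the other lists and the pathway genes were chosen with earlier results of these data known. Genes given with all values were the largest change in each role, the 5 most positive and 5 most negative log2 fold changes, called genes opposite to most, and well-known genes of each role. From each other list, at most 4 genes with the largest changes in either direction were named.

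Alternatives were no filter, at least 10 counts in every library, DESeq2 1.42.0, limma-voom 3.58.1, library size, upper-quartile and RLE scaling, a replicate block, an adjusted p under 0.01, a minimum fold of 1.2 (glmTreat), each library left out and shorter promoter windows. The background of genes of at least 10 CPM and the window of 50 bases either side of the start were chosen after seeing the data. A check on simulated counts, with 200 of 16365 genes changed, counted genes called in the right direction. It recovered 31.8% of genes changed by 0.25 log2 units, 80.0% at 0.5, 89.4% at 1.0 and 100.0% at 2.0. Of its calls, 7.19% were false. In the data, 4210 lower and 4336 higher of 16580 genes were called, so the adjusted threshold was less strict than in the simulation. These shares therefore do not give the recovery or the false share of the fit to the data.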

Additional observations from a re-analysis of the deposited data

How the results depend on the processing

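Most members changed by less than 1.2-fold, so the count of calls depended on whether a minimum size was asked for. Requiring a change beyond 1.2-fold with glmTreat left 7 members lower (KIF20A, CCNB1, KIF18A, CENPF, TOP2A, CDC20 and KIF20B) and 0 higher. At an unadjusted p under 0.05 the same test gave 10 lower and 0 higher. It also left 1475 lower and 1828 higher of the 16580 genes tested. Among the 154 genes of the 7 further lists it left 8 lower and 8 higher. Of the 39 DNA replication genes, 2 stayed lower and 5 higher. An adjusted p under 0.01 gave 29 lower and 2 higher members, with no share over all genes given at this cut.

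Under every other alternative 31 to 37 members were lower and 2 or 3 were higher. For these, counts over all genes are given only for the fits without a library and the replicate block. The member counts under other filters, tools and scalings therefore have no share over all genes beside them. Upper-quartile scaling gave the 37 and moved the members' median to -0.19, with the median of all genes at -0.03, and library size scaling changed the summed level of the members by -11.3%. The log2 fold changes of all 36 called members kept their direction under all alternatives, and 32 kept their call in all 6 fits without a library. Leaving out each library in turn gave 31 lower members every time, 2 to 3 higher members, a median of -0.16 to -0.15 and a summed change of -12.6% to -11.7%. Among all genes tested, these fits gave 3748 to 3925 lower and 3917 to 4047 higher. Reversals were limited to uncalled genes, PLK4 (-0.02 with upper-quartile scaling, -0.03 to 0.06 without a library), CDCA8 (-0.05 to 0.01 without a library, 0.01 without untreated replicate 2), KIFC1 (-0.07 to 0.23, with -0.05 without untreated replicate 2 and -0.07 without Y-320 replicate 2) and FOXM1 (-0.06 to 0.00). The cause of these shifts was not tested. Of the 42 promoters, 29 held a CHR from 100 bases before to 50 after the start (69.0%, against 7.37% of all promoters). In that window 27 held CCAAT (64.3%, against 21.3%) and 2 held an E2F motif (4.76%, against 1.68%).

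Deviations from the group means showed no visible pairing by replicate number, with correlations of -0.00236, 0.0155 and 0.00222 between same-numbered libraries. These values cannot show whether same-numbered samples were handled together. With a replicate block, 33 members were lower and 3 were higher, and 4159 genes were lower and 4285 higher among all tested. Depth limits KIFC1 most among the members, at group means of 2.33 and 2.46 CPM, while SPC25 (SE 0.22) scattered far more than KIF15 (SE 0.062), another gene at a low level.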

Other observations

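Genes that control entry into the cell cycle moved in both directions. Of 15 G1 cyclins, their kinases and CDK inhibitors, 6 were lower (40%, against 25.4% of all genes), 4 were higher (26.7%, against 26.2%) and 5 did not pass the threshold. Their median absolute log2 fold change was 0.26, beside 0.16 for the 50 mitotic genes and 0.21 for all genes, a difference that was not tested, and their range was -1.97 to 1.47. CDKN1A (p21), an inhibitor of cyclin-dependent kinases, had 36.6, 39.8 and 41.5 CPM in untreated replicates 1, 2 and 3 and 105, 114 and 109 CPM with Y-320. It was higher in 3 of 3 libraries, with a log2 fold change of 1.47 (SE 0.049, edgeR adjusted p = 5.27e-09). CDKN2D (p19) was higher too, at 0.53. CDKN1C (p57) changed by -1.29, with untreated values of 5.21, 2.30 and 2.81 CPM and treated values of 1.53, 1.33 and 1.35 CPM. It stayed past the threshold in every fit without a library, with values from -1.51 without untreated replicate 2 to -0.86 without untreated replicate 1. CCND2, a D-type cyclin, changed by -1.97 at a low level, where the untreated libraries held 13.6, 21.1 and 31 estimated counts and the treated ones 6, 6 and 5.18.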
